A study of Mus musculus with 16 samples.

Results

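The alveolar type 2 (AT2) cell genes examined here were *Sftpc*, *Sftpb*, *Sftpa1*, *Sftpd*, *Lamp3*, *Abca3*, *Slc34a2*, *Lyz2*, *Etv5* and *Napsa*. Their members were the accessible regions (peaks), from both deposited lists pooled, whose centre lay closer to a start site of one of these 10 genes than to that of any other protein-coding gene. This gave 55 of the 80367 listed peaks. Of these 55 peaks, 41 were more accessible in GFPhigh cells (opened) and 14 were less accessible (closed). The genes are known markers of AT2 cells, and membership used the position of a peak and not its direction.

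The peaks came from ATAC-seq, in which the Tn5 transposase inserts sequencing adaptors into open chromatin, of small cell lung cancer (SCLC) cells. Tumors were induced in mice homozygous for floxed (fl) alleles of *p130*, *p53* and *Rb* and with a GFP knock-in at 1 allele of *Hes1* (*TKO*;*Hes1* GFP/+), by instilling an adenovirus that drives Cre from the CMV promoter into the trachea, so recombination was not restricted to 1 lung cell type. Tumor cells of both groups thus shared the deletions of *Rb*, *p53* and *p130* and 1 GFP allele of *Hes1*. The groups were GFPhigh cells, which are Notch-active and non-neuroendocrine (non-NE), and GFPneg cells, which are neuroendocrine (NE). The labels give 4 pairs of populations from 3 mice, with 1 pair a technical replicate, and 16 runs of 8 libraries on 2 lanes. Cells were sorted from the pooled tumors of each mouse, negative for leukocyte, endothelial and erythroid surface markers, with CD24 as the positive selection marker. A peak was listed when it passed the limits the study set on its comparison of the groups, a log2 fold change above 1 or below -1 and an adjusted p below 0.001. The lists hold no value per library, so the level of a peak in each sample and its spread could not be given, no test was made here, and depth per library is unknown. Each peak's signal is the mean over the libraries of both groups of counts divided by size factors. It says how strong a peak was in the pooled data and nothing of its direction. Peaks outside these limits were not used here.

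AT2 cells are the secretory cells of the lung alveolus. They make surfactant, a film of phospholipids and 4 surfactant proteins that lowers surface tension, store it in lysosome-related lamellar bodies and release it onto the alveolar surface. AT2 cells also renew the flat alveolar type 1 (AT1) cells, and they depend on the homeodomain factor NKX2-1, FOXA and C/EBP factors and FGF signaling. SCLC cells of the NE kind resemble pulmonary neuroendocrine cells (PNECs), which share NKX2-1 with AT2 cells but make no surfactant. Not all of the genes are confined to AT2 cells. For example, *Sftpb* is shared with club cells, and *Lyz2* with macrophages and neutrophils.

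Of the listed peaks of AT2 cell genes, 74.5% had opened in GFPhigh cells (41 of 55, 95% Wilson interval 61.7 to 84.2%), beside 50.8% of all listed peaks. The interval covers counting error only, and peaks of 1 gene share a locus and are not independent. The 4 surfactant protein genes held 14 opened peaks and no closed one. *Abca3*, *Lamp3*, *Slc34a2* and *Napsa*, which serve the lamellar body, phosphate transport and surfactant protein processing, held 21 opened peaks of 27. *Etv5* held 6 opened and 6 closed peaks, and *Lyz2* held 2 closed peaks and no opened one. For 6 of the 10 genes all listed peaks had opened, beside 36.9% of all protein-coding genes that had listed peaks. These were *Sftpc*, *Sftpb*, *Sftpa1*, *Sftpd*, *Lamp3* and *Napsa*. In these bulk populations, a larger share of cells with an open site and a more open site in each cell cannot be told apart.

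**Figure D1:**
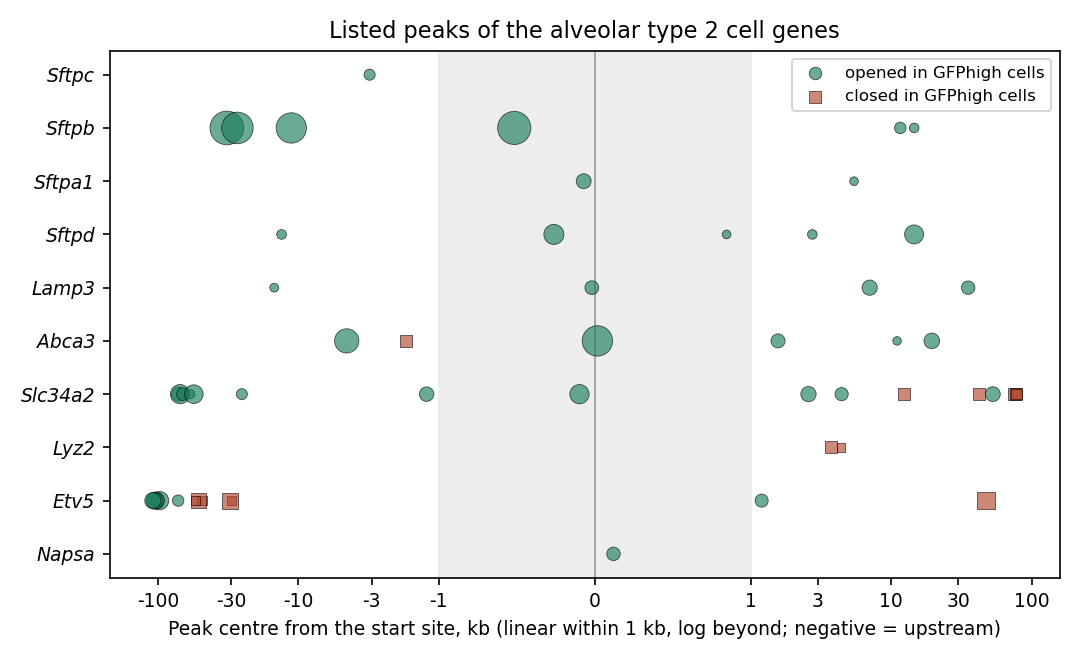
Listed peaks of the 10 AT2 cell genes, by distance of the peak centre from the nearest start site of the gene in kb (linear within 1 kb, shaded, and logarithmic beyond, with negative values upstream). Circles are opened and squares closed peaks, and the area of a symbol grows with the mean normalized signal over all libraries. The 8 peaks in the shaded zone had all opened, the largest symbols are at *Sftpb* and *Abca3*, and closed peaks lie at *Slc34a2*, *Lyz2*, *Etv5* and *Abca3*.

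A promoter peak, with its centre within 1 kb of a start site of the gene, had opened at 7 of the 10 AT2 cell genes, beside 26.6% of all protein-coding genes. No AT2 cell gene had a closed promoter peak, beside 8.42% of all protein-coding genes, but at a distance of 3 kb 1 gene, *Abca3*, had one, beside 12.7%. The 7 genes were *Sftpb*, *Sftpa1*, *Sftpd*, *Lamp3*, *Abca3*, *Slc34a2* and *Napsa*, and *Sftpd* had 2 such peaks. For each of the 7 genes but *Napsa*, the 200 bases before the first start site lay wholly inside the opened peak, and for *Napsa* 57 of them did. These 200 bases are printed because they adjoin start sites with an opened promoter peak. They were read from the GRCm38.p6 genome (mm10) on the strand of the gene, 5′ to 3′. Capitals mark matches to any of 10 short strings described further on.
Sftpb, chr6:72304410-72304609, plus strand: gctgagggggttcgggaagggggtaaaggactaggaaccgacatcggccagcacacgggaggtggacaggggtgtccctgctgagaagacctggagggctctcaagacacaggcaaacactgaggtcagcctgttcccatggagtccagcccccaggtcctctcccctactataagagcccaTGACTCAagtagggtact
Sftpa1, chr14:41131582-41131781, plus strand: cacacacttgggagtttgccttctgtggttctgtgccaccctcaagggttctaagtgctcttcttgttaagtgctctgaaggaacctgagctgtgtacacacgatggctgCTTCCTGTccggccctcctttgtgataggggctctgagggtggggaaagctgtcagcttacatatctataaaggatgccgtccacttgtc
Sftpd, chr14:41185150-41185349, minus strand: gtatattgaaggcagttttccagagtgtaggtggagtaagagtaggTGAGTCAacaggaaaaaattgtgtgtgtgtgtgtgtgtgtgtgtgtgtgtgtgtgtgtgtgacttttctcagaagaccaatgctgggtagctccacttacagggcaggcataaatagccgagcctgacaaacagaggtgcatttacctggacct
Lamp3, chr16:19706376-19706575, minus strand: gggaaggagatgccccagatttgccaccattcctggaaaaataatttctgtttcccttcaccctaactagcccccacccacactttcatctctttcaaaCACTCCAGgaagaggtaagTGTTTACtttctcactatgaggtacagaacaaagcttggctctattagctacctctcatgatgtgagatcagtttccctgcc
Abca3, chr17:24351823-24352022, plus strand: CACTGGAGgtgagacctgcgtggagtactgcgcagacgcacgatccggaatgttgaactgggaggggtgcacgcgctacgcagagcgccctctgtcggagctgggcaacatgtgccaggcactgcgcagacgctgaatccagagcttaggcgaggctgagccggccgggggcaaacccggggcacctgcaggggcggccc
Slc34a2, chr5:53049152-53049351, plus strand: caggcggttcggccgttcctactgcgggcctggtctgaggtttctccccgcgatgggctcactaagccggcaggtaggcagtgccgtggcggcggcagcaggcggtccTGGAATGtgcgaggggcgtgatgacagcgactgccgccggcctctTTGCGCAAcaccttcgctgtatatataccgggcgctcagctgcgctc
Napsa, chr7:44572180-44572379, plus strand: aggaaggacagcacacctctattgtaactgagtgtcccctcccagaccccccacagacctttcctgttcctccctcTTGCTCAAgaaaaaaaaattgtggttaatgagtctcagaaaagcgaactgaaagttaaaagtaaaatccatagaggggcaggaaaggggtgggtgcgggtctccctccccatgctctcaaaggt

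In these windows the capitals mark an AP-1 match in *Sftpb* and in *Sftpd*, an ETS match in *Sftpa1*, an NKX2 and a FOX match in *Lamp3*, an NKX2 match in *Abca3*, a C/EBP and a TEAD match in *Slc34a2* and a C/EBP match in *Napsa*. The *Napsa* match lies outside the listed peak. Among the same 200 bases of all protein-coding genes, 9.56% held the NKX2 string, 6.97% the C/EBP string, 5.42% the ETS string, 4.66% the AP-1 string, 2.31% the TEAD string and 2.0% the FOX string. The start sites of *Sftpc*, *Lyz2* and *Etv5* had no listed peak within 1 kb.

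*Sftpb* (chr6:72304610-72314371, plus strand) encodes surfactant protein B, the hydrophobic protein needed for lamellar body formation and surface film spreading. It had 6 opened peaks and held the strongest of all 55. Its promoter peak (chr6:72303460-72304727) was 1268 bp wide, the widest of the opened AT2 cell gene peaks, and had a mean normalized signal of 479. The peaks 32.3, 27.15 and 11.2 kb upstream had signals of 495, 429.9 and 395. The promoter peak lay at the 97.2 percentile of signal among all 40828 opened peaks, and the upstream peaks, from far to near, at the 97.4, 96.3 and 95.7 percentiles. The 3 upstream peaks were in intergenic sequence and were 731, 867 and 901 bp wide. The remaining opened peaks, 11.6 and 14.6 kb downstream of the start, were weak, with signals of 33.4 and 14.9. The second of these lay in the 3′ end of the neighboring *Usp39*, which runs toward *Sftpb*. The central 200 bases of the strongest peak, 32.3 kb upstream, are shown with an NKX2 and a FOX match in capitals.
Sftpb upstream peak, chr6:72272212-72272411, plus strand: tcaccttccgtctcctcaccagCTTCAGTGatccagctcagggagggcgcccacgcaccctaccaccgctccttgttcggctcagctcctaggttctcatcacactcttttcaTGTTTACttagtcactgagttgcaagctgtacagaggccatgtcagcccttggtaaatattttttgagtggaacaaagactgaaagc

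*Sftpc* (chr14:70520953-70524081, minus strand) encodes surfactant protein C, in the lung a widely used marker of AT2 cells. Its only listed peak was an opened peak 3107 bp upstream of the start site (chr14:70527104-70527271), 168 bp wide, with a signal of 28.9. This was at the 39.3 percentile of all opened peaks. *Sftpc* has a territory, the stretch in which its start site is the nearest, of 5.32 kb, so few peaks could be assigned to it. The 200 bases around the centre of that peak, which include short flanks, with 1 AP-1 match in capitals, are given on the strand of *Sftpc*.
Sftpc upstream peak, chr14:70527088-70527287, minus strand: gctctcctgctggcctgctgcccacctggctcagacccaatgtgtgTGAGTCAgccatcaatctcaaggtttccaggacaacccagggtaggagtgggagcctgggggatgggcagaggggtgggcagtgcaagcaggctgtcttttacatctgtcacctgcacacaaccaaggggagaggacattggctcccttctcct

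*Sftpa1* and *Sftpd* encode the collectins SP-A and SP-D, soluble lectins that bind microbes and lipids, and they lie at 1 locus on chromosome 14 with the lectin gene *Mbl1* between them. The promoter peak of *Sftpa1* (chr14:41131528-41131894) covered the start site and had a signal of 73.7. The other *Sftpa1* peak, 5438 bp downstream, had a signal of 6.86, at the 2.61 percentile of all opened peaks. *Sftpd* had 5 opened peaks. The stronger ones were its promoter peak (chr14:41185093-41185729), with a signal of 157, and a peak 14.6 kb downstream of the start, beyond the end of the gene, with a signal of 138. The other promoter peak of *Sftpd*, 845 bp inside the gene (chr14:41184268-41184340), was 73 bp wide with a signal of 6.70. The remaining peaks of *Sftpd*, 2744 bp downstream in an intron and 13.2 kb upstream, had signals of 14.8 and 15.5. Each collectin gene thus had its strongest opened peak at the start site, and neither had a closed peak.

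*Abca3* (chr17:24352023-24410201, plus strand) encodes the transporter that pumps phospholipid into lamellar bodies. Its promoter peak (chr17:24351727-24352398) had a signal of 396, was at the 95.7 percentile of all opened peaks, and was the most GC-rich of the AT2 cell gene peaks (69.3% GC, 65 CpG dinucleotides). An opened intronic peak 4.52 kb before the last of its 3 start sites (chr17:24359580-24360338) had a signal of 243 and an NKX2 match in its central 200 bases. The 3 further opened peaks downstream in the gene had signals of 63.0, 5.91 and 84.8. The 1 closed peak of *Abca3* (chr17:24362605-24362934), between opened intronic peaks, had a signal of 36.2 and lay 226 bp from the start of a small nuclear RNA gene, *Gm25618*. This closed peak held 2 AP-1 matches in its central 200 bases, and none of the 5 opened *Abca3* peaks held one there.

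*Lamp3* (chr16:19653378-19706375, minus strand) encodes DC-LAMP, a membrane glycoprotein of lamellar bodies that is also made by mature dendritic cells. It had 4 opened peaks and no closed one. The promoter peak (chr16:19706171-19706617) covered the start site with a signal of 59.4. The strongest was an intronic peak 7023 bp downstream (chr16:19699083-19699620) with a signal of 79.1. A second intronic peak 35.3 kb downstream had a signal of 55.5, and a weak peak 14.8 kb upstream had a signal of 8.52. Both the promoter peak and the strongest peak held an NKX2 match in their central 200 bases, the former with a FOX and the latter with a C/EBP match. The central 200 bases of the strongest peak are shown on the strand of *Lamp3* with these matches in capitals.
Lamp3 intronic peak, chr16:19699252-19699451, minus strand: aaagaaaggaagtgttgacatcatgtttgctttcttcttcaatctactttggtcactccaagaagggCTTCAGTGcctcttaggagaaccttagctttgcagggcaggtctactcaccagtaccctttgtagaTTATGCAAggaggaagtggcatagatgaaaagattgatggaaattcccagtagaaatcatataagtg

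*Napsa* (chr7:44572380-44586862, plus strand) encodes napsin A, an aspartic protease that processes the precursors of surfactant proteins B and C. Its only listed peak was the opened promoter peak (chr7:44572323-44572677), 120 bp downstream of the start site by its centre, with a signal of 55.2. The *Napsa* territory was 18.4 kb.

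*Slc34a2* (chr5:53049352-53071664, plus strand) encodes the sodium-phosphate cotransporter NaPi-2b, through which AT2 cells take up phosphate for phospholipid synthesis. With 11 opened and 5 closed peaks it had the most listed peaks of the 10 genes, in a territory of 189.7 kb. The opened peaks reached from 71.2 kb upstream to 4.44 kb downstream of the start, with 1 more at 52.9 kb downstream. Of the 11, 8 were upstream, and 5 of these formed a group 55.5 to 71.2 kb upstream with signals between 7.56 and 143, within the noncoding genes *5033403H07Rik* and *Gm30301*. The promoter peak (chr5:53049064-53049443) had the highest signal of the gene, 144, and 38 CpG dinucleotides. It also covered the start of the antisense gene *Gm17182*. The 5 closed peaks all lay downstream of the start, from 12.4 to 78.1 kb, and had signals between 21.0 and 42.8. The strongest of them (chr5:53124836-53125104) lay 75.6 kb downstream, was 269 bp wide and held an NKX2 match. Of the 5, 3 lay in introns of *Sel1l3*, the next gene, and were assigned to *Slc34a2* by distance. No closed peak of *Slc34a2* lay upstream of its start.

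*Etv5* (chr16:22381309-22439719, minus strand) encodes an ETS transcription factor induced by FGF signaling that AT2 cells need to keep their identity, and it was split evenly, with 6 opened and 6 closed peaks. The opened peak nearest a start site lay 1195 bp downstream in the gene (chr16:22438456-22438591), with a signal of 50.7. The other 5 opened peaks lay 71.7 to 108.7 kb upstream, with signals between 32.3 and 126. The strongest of these was 97.2 kb upstream (chr16:22536616-22537234). Of the 6 closed peaks 5 formed a group nearer the gene, 29.9 to 53.8 kb upstream, with signals between 11.9 and 92.5. The sixth closed peak, 47.2 kb downstream in an intron of *Etv5* (chr16:22389068-22389521), had the highest signal of the 14 closed peaks, 116. The 5 far opened and the 5 upstream closed peaks all lay inside *Dgkg*, the diacylglycerol kinase gene upstream of *Etv5*, and no value here tells which of the genes they act on. Opened and closed peaks of *Etv5* thus did not alternate along the upstream sequence, where all closed peaks were nearer the start site than the opened ones. The central 200 bases of the strongest opened peak are shown on the strand of *Etv5*, with 2 NKX2 matches in capitals.
Etv5 upstream peak, chr16:22536825-22537024, minus strand: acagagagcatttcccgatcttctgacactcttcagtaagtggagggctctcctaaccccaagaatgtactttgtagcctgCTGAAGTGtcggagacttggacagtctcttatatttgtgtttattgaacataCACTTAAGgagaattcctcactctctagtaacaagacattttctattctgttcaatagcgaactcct

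*Lyz2* (chr10:117277331-117282321, minus strand) encodes lysozyme M, which AT2 cells secrete and which macrophages and neutrophils make in quantity. It was the only AT2 cell gene without an opened peak. Its 2 closed peaks lay inside the gene, 3706 and 4400 bp downstream of the start (chr10:117278391-117278838 and chr10:117277881-117277960), with signals of 37.5 and 6.75. The first overlapped an exon with its centre in an intron, and the second lay in an exon that holds untranslated sequence. *Lyz2* lies beside its near-identical copy *Lyz1*, which had 4 opened and 3 closed listed peaks, and reads from the shared sequence of both genes may have been placed on either. Of 10 genes of alveolar macrophages and other myeloid cells, *Lyz1* among them, 6 had opened and 4 had closed peaks, 20 opened peaks of 32 in all, 2 had no listed peak, and their part in the *Lyz2* result was not tested.

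**Figure D2:**
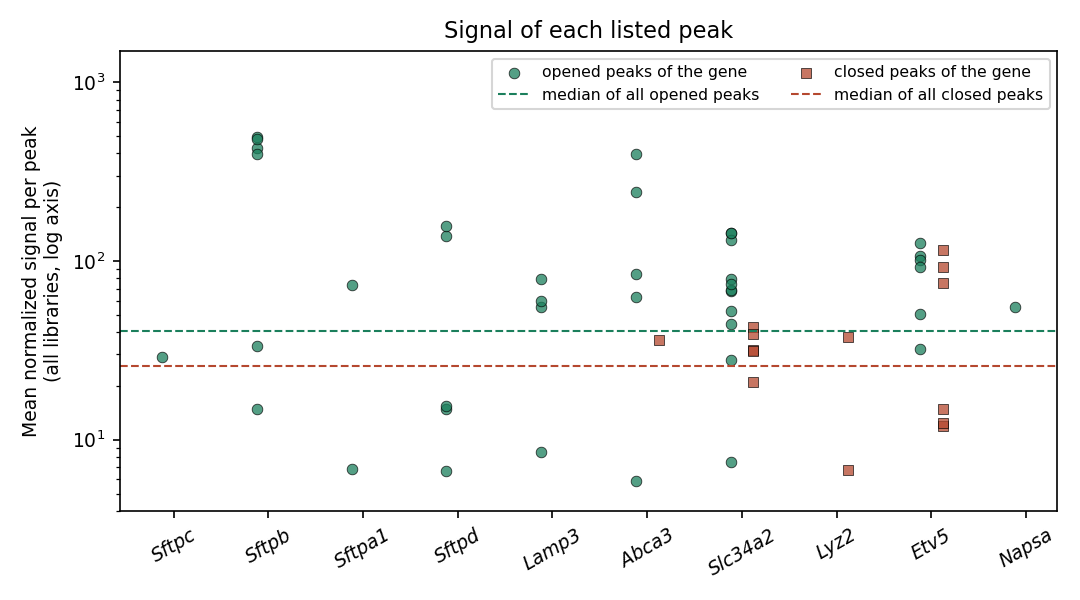
Mean normalized signal of each of the 55 listed peaks of the AT2 cell genes (log axis), a mean over the libraries of both groups, with opened peaks as circles and closed peaks as squares. Dashed lines mark the medians of all opened (40.7) and all closed (25.8) peaks, and 4 peaks of *Sftpb* and 2 of *Abca3* stand highest.

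The opened peaks of AT2 cell genes had a median signal of 69.0 (range 5.91 to 495, n = 41 peaks), beside 40.7 for all opened peaks, a ratio of 1.70. Of the 41 peaks, 29 were above the median of all opened peaks and 6 were in its top 10%. These 6 were the 4 strong *Sftpb* peaks and the *Abca3* promoter and intronic peaks. At the other end, 5 of the 41 were in the lowest 10%. The peaks were also wider than usual, with a median of 396 bp beside 300 bp, and per kb of peak the median signal was 172 beside 144, a ratio of 1.20. By signal per kb, 25 of the 41 were above the median of all opened peaks and 4 were in the top 10%. The 14 closed peaks had a median signal of 34.0 (range 6.75 to 116) beside 25.8 for all closed peaks. GC content was 49.7% at the median of the opened and 49.3% at that of the closed peaks of AT2 cell genes, beside 51.1% and 48.9% of all opened and all closed peaks.

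By place in the genome, 8 of the 41 opened peaks were within 1 kb of a start site of their own gene, 19 were farther upstream and 14 farther downstream. Another 4 were within 1 kb of a start site of a noncoding gene, so that 29.3% of the opened peaks counted as promoter peaks of some gene (12 of 41, 95% Wilson interval 17.6 to 44.5%), beside 22.3% of all opened peaks. Of the 41 opened peaks 13 lay inside their own gene and 6 inside another protein-coding gene. Of the 14 closed peaks 5 lay inside their own gene and 8 inside another protein-coding gene. All 55 peaks were assigned by distance, and only 18 of them lay inside the gene they were assigned to.

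The 10 short strings for the binding sites of factors known in AT2 cells or in this model were searched on both strands in a 200 bp window around the centre of every peak, allowing no mismatch. The window runs past the ends of peaks narrower than 200 bp, and among AT2 cell genes 9 opened peaks (of 41) and 5 closed peaks (of 14) were that narrow. The letter N in a string stands for any base. A match describes letters and is not a bound site. The NKX2 string, CACTNNAG, was found in 13 of the 41 windows of opened peaks (31.7%, 95% Wilson interval 19.6 to 47.0%), beside 17.9% of all opened and 16.5% of all closed peaks. Of these 13 matches, those at 1 weak peak each of *Sftpb* and *Sftpd* lay outside the peak. Counting only bases inside the peak, 11 of 41 opened peaks held the string (26.8%, interval 15.7 to 41.9%), beside 16.8% of all opened peaks, which is inside the interval. The 11 peaks belonged to 5 of the 10 genes, with 3 at *Etv5* and 2 each at *Sftpb*, *Lamp3*, *Abca3* and *Slc34a2*. The string was also inside 4 of the 14 closed peaks. The share of all opened peaks likewise lay inside the interval of the AT2 cell genes when whole peaks were searched (39.0%, interval 25.7 to 54.3%, beside 26.1%) and when only peaks over 1 kb from a start site were kept (34.5%, interval 19.9 to 52.7%, beside 20.1%). In the 200 bp windows of the opened peaks of 10 AT1 cell genes it was in 19.5% (16 of 82), and in those of 10 club cell genes in 17.3% (9 of 52).

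The AP-1 string, TGANTCA, was found inside 3 of the 41 opened peaks of AT2 cell genes (7.32%) and inside 3 of the 14 closed ones (21.4%), with a match just outside a closed *Lyz2* peak not counted. Over all listed peaks the same string was inside 10.1% of opened and 25.4% of closed peaks. The C/EBP string, TTGCNNAA, was in the windows of 6 opened peaks (14.6%, beside 12.4% of all opened). The FOX string, TGTTTAC, was in 3 (7.32%, beside 6.84%), and so was the ETS string, ACNGGAAG (beside 5.04%). The TEAD string, CATTCCA, was in 2 (4.88%, beside 6.86%), and so was the RBPJ string, GTGGGAA (beside 5.74%). No window of an opened peak held the GATA string, AGATAAG, found in 3.04% of all opened peaks. None held the SREBP string, TCACNCCAC, found in 0.872% of all opened peaks, or the KLF string, GGGTGTGG, found in 3.69%. A count of 0 of 41 windows allows a share of up to 8.57% by the same interval. With whole peaks searched, the FOX string was in 8 of the 41 (19.5%, interval 10.2 to 34.0%), beside 9.50% of all opened peaks, and the GATA string in 4 (9.76%), beside 4.51%. The AP-1 string was then in 8 (19.5%), above the 15.1% of all opened peaks, where inside the window it was below their share. The SREBP and KLF strings were then in 1 each. None of the 10 strings was in the window of 18 of the 41 opened peaks, and none was anywhere in the whole peak of 14.

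**Figure D3:**
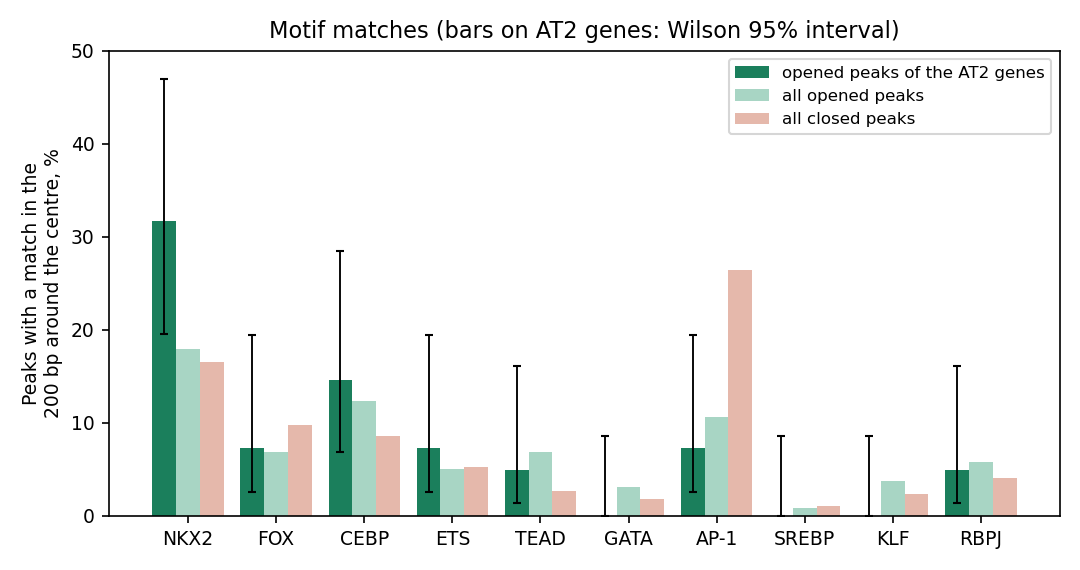
Share of peaks with a match to each of 10 short strings in a 200 bp window around the centre, in percent, for the 41 opened peaks of the AT2 cell genes (dark green, bars are 95% Wilson intervals), all opened peaks (light green) and all closed peaks (light red). The NKX2 bar (31.7%) includes 2 matches that lie outside narrow peaks, without which it is 26.8% with an interval of 15.7 to 41.9%.

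Genes that act around the 10 members were described by lists of their own, to be read beside 50.8% of all listed peaks opened and, of all protein-coding genes, 26.6% with an opened and 8.42% with a closed promoter peak. Of 20 genes of surfactant lipid synthesis, 10 had an opened and 1 a closed promoter peak, and 66.7% of their listed peaks had opened (86 of 129). Among them *Lpcat1*, which remodels phosphatidylcholine, had 9 opened and 4 closed peaks, *Acsl4*, which activates long-chain fatty acids, 12 opened and 1 closed, and *Fabp5*, a fatty acid carrier, 2 opened and 11 closed. Of 17 genes of surfactant protein processing, lamellar bodies and secretion, 10 had an opened and none a closed promoter peak, with 69.0% of peaks opened (80 of 116). *Ctsh*, a protease that trims surfactant proteins B and C, had 17 opened peaks and no closed one, and *Atp11a*, a phospholipid flippase, had 14 opened and 2 closed. *Atp8a1*, another flippase gene, went the other way with 3 opened and 9 closed, and *Adgrf5*, a receptor gene that restrains surfactant secretion, had 7 and 5. Another 18 AT2 markers had 76.8% of peaks opened (96 of 125), 12 with an opened and none with a closed promoter peak. *Lyz1* is in this list and also in that of the myeloid genes. *Fgfr2*, the receptor through which FGF maintains AT2 cells, had 25 opened and 8 closed peaks, *Rasgrf1* had 6 and 7, and *Il33*, a cytokine gene, had 7 and 4.

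The transcription factor genes of AT2 cells had closed peaks as well as opened ones. Of 12 such genes, 6 had an opened promoter peak and 1, *Ehf*, a closed one, and 57.1% of their peaks had opened (124 of 217, 95% Wilson interval 50.5 to 63.5%). The 50.8% of all listed peaks lies inside this interval. Both directions were found at 10 of the 12, beside 41.5% of all protein-coding genes with listed peaks. However, these 12 genes had far more listed peaks than the median of 1 over all protein-coding genes, those without a listed peak included. *Foxa2*, which is active in airway, alveolar and neuroendocrine cells, had 19 opened and 26 closed peaks, the zinc finger factor genes *Klf5* 14 and 23 and *Gata6* 15 and 7, and the ETS factor gene *Ehf* 13 and 11. *Etv5*, another ETS factor gene, likewise had both, 6 and 6, among the members.

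The opened share of the AT2 cell genes was not above that of other non-NE epithelial cell types of the lung. It was 87.2% for AT1 cell genes (82 of 94, 95% Wilson interval 79.0 to 92.5%), 81.2% for club cell genes (52 of 64, 70.0 to 88.9%) and 78.6% for ciliated cell genes (33 of 42, 64.1 to 88.3%), and all of these intervals overlapped that of the AT2 cell genes. PNEC genes had 11.0% (8 of 73, 5.66 to 20.2%), the direction that goes with GFPneg cells, which the study describes as NE. All 8 opened peaks were at *Chga*, which also had 6 closed ones, and *Insm1* held 28 of the 65 closed peaks. An opened promoter peak was found at 7 of 10 AT2, 6 of 10 AT1, 7 of 10 club and 4 of 10 ciliated cell genes and at none of 10 PNEC genes. The median signal of the opened peaks was 69.0 for AT2, 41.6 for AT1, 49.1 for club and 27.2 for ciliated cell genes. The peaks differed in width, with medians of 396 bp for AT2, 271.5 for AT1, 347 for club and 273 for ciliated cell genes. Per kb of peak the median signal was 172 for AT2, 148 for AT1, 180 for club and 112 for ciliated cell genes, so club cell genes were then highest. Of the cell types that the sort removes or that surround tumor cells, 22.2% of the peaks of endothelial genes (18 of 81) and 43.5% of those of fibroblast genes (10 of 23) had opened, and 62.5% of those of macrophage and myeloid genes (20 of 32). The part of such cells in the peaks of AT2 cell genes was not tested.

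**Figure D4:**
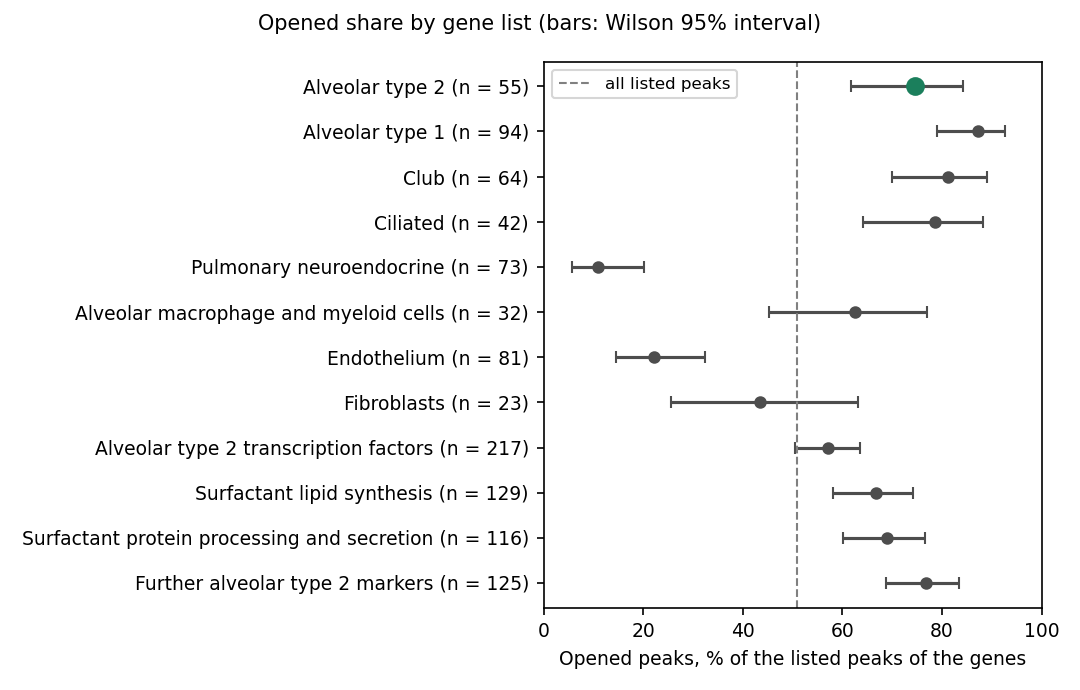
Opened peaks as a percentage of the listed peaks of each gene list, with 95% Wilson intervals that cover counting error only and n the number of listed peaks. The dashed line marks all listed peaks (50.8%), and the AT2 cell genes (green, 74.5%) lie with the AT1, club and ciliated cell genes above it, while the PNEC (11.0%) and endothelial genes (22.2%) lie below it.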

How the data were processed

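ATAC-seq was done on GFPhigh and GFPneg SCLC cells of *TKO*;*Hes1* GFP/+ mice. Per the study's methods and the submitters' processing notes, reads were trimmed, mapped to mm10 with Bowtie2 (2.3.4.1), deduplicated and used to call narrow peaks with MACS2. The authors merged the peaks of all samples, counted reads per peak and compared the groups with DESeq2 (1.28.1). The signal deposited by the authors is the mean over all libraries of counts divided by size factors. The lists also hold the authors' log2 fold changes, their standard errors, test statistics and p-values, which were not used. Here, peaks were assigned with GENCODE vM21 basic start sites on GRCm38.p6, inside whose chromosomes all peaks lay, in Python 3.11.15 with pandas 2.3.3, numpy 2.4.6, scipy 1.17.1, pysam 0.24.0 and matplotlib 3.10.9. Assignment and motif search were tested on simulated data. Intervals of shares are Wilson intervals at 95%. No test was made here, since the lists hold no value per library. The members and lists were chosen with earlier results of these data known. All 10 members are named, with each promoter peak and the strongest peak per gene and list described singly, the sequences of the strongest opened peaks and of the bases before starts with an opened promoter peak, and at most 4 genes per other list, those with the most listed peaks. *Lyz1* is named beside these because it borders *Lyz2*.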

Additional observations from a re-analysis of the deposited data

How the results depend on the processing

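The opened share of the AT2 cell gene peaks was 74.5%. Over 18 alternatives it lay between 71.4% and 81.4%, and both ends came from leaving out 1 gene at a time, the lowest without *Sftpb* and the highest without *Etv5*. The other alternatives were assignment within 10 kb of the gene body, a limit of 100 kb, start sites of any gene type, the nearest edge of the peak, merging within 100 bp, only peaks at or above the median signal, only peaks at least 200 bp wide, and the mean over genes. The share of all listed peaks was 50.8%, but 55.7% at the limit of 100 kb and 58.9% at or above the median signal, where the AT2 cell genes had 73.1% and 77.5%. The count of genes with an opened promoter peak was 7, 8 at a distance of 3 kb (*Etv5* was the addition) and 7 when the peak had to cover the start, beside 26.6%, 30.3% and 24.9% of all protein-coding genes. The count with a closed promoter peak was 0, and 1 at 3 kb (*Abca3*), an alternative chosen after seeing the data, as was counting only motif matches inside the peak. At 3 kb the share of promoter peaks among the opened ones was 56.1%, beside 31.8% of all opened peaks. With the whole peak searched, FOX and AP-1 matches were in 19.5% of opened peaks each (interval 10.2 to 34.0%) and GATA matches in 9.76% (3.86 to 22.5%), beside 9.50%, 15.1% and 4.51% of all opened peaks, where a longer sequence was searched. No paired analysis was possible because the lists hold no value per library. Nearest-gene assignment is uncertain for peaks inside *Dgkg*, *Sel1l3* and *Usp39*. Only peaks past the study's limits were analysed, so a gene without a listed peak may have open chromatin that differed less between the groups.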

Other observations

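Within 50 kb of the gene body of 7 of the 10 members, other genes also had listed peaks, to be read beside 50.8% of all listed peaks opened. Around *Lamp3*, *Slc34a2* and *Etv5* the listed peaks were those of the member alone, with 4 opened and 0 closed, 6 and 2, and 1 and 4. Around *Sftpb* there were 10 opened peaks and no closed one, of which 2 were assigned to *Atoh8*, a transcription factor gene, and 2 to *Usp39*, a splicing factor gene. Around *Sftpd* there were also 10 opened peaks and no closed one, with 3 at *Mbl1*, 2 at *Sftpa1* and 5 at *Sftpd* itself. The overlapping stretch around *Sftpa1* held 9 opened and 2 closed peaks, the closed ones at *Mat1a*, and that around *Abca3* held 10 and 3. Around *Sftpc*, where the gene itself had 1 listed peak, there were 8 opened and 2 closed peaks, with 3 of the opened ones at *Bmp1* and 1 at *Lgi3*, a gene that AT2 cells also express. Around *Napsa* there were 12 opened peaks and 1 closed, of which 4 opened ones were at *Mybpc2*. Around *Lyz2* there were 6 opened and 6 closed peaks. These genes were chosen after their values were seen, for their place beside the members.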
